A study of Homo sapiens with 24 samples.

Results

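Aminoacyl-tRNA synthetases are the enzymes that join each amino acid to its transfer RNA. The genes described here are 35 named members of this family, 19 for cytosolic enzymes and 16 for mitochondrial ones, taken from the array by gene symbol or by the older symbol without its final digit. A probe carried the name of 34 of them, and no named probe was found for WARS2. All 34 passed the filter on dim probes and were tested among 10958 genes, 19 of them cytosolic and 15 mitochondrial. Where a gene had more than 1 probe, the probe with the highest mean over the 24 arrays was read. This touched IARS1 alone, whose second probe was above background on 0 arrays.

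RNA came from IMR90, human fibroblasts first grown from fetal lung. All groups carry ER:RAS-G12V, an activated RAS fused to the estrogen receptor and switched on by 4-hydroxytamoxifen (4-OHT). The 0 h arrays are the untreated controls of the same cells, and the other groups had 100 nM 4-OHT for 2, 8 or 24 h or for 2, 4, 6 or 8 d. The arrays are Illumina human-6 v2 BeadChips, 24 in all, with 3 at each of the 8 time points, 1 from each biological batch (A, B and D). Untreated cells at later times were not analysed here, so effects of 4-OHT, of RAS and of days in culture cannot be told apart. Cells were passaged on the day before each harvest, and the labels do not say how many clones or infections the line came from.

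Each synthetase recognises its own amino acid and the matching transfer RNAs, and fast-growing cells need a steady supply of the charged product. Mitochondria translate the few proteins of their own genome with a separate set of enzymes, which nuclear genes encode and which are imported. KARS1 and GARS1 are exceptions, since a shared gene gives both the cytosolic and the mitochondrial enzyme, and both are counted here with the cytosolic genes. A multi-synthetase complex in the cytosol holds several of the enzymes. Many cytosolic synthetase genes are targets of ATF4, a transcription factor that is made more of when amino acids run short and that binds C/EBP-ATF sites. The 12 cytosolic genes commonly named as its targets (AARS1, CARS1, EPRS1, GARS1, IARS1, LARS1, MARS1, NARS1, SARS1, TARS1, WARS1 and YARS1) are called the ATF4 group below, and the other 7 cytosolic genes are FARSA, FARSB, HARS1, KARS1, QARS1, RARS1 and VARS1.

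The promoters were searched for the core of the C/EBP-ATF site, TGATGNAA, on both strands, because the ATF4 group sets the synthetases apart on some arrays below. Promoters (250 bases before to 50 after the gene start, RefSeq, build GRCh38.p14) were found for 30 of the 35 genes. In the ATF4 group 7 of 10 genes with a promoter held the motif, in 7 of 15 promoters. It was in 0 of 6 promoters of the other cytosolic genes and in 1 of 18 mitochondrial promoters, that of YARS2. The share over all 35116 promoters was 3.62%. The 8 sites are printed below over 30 bases in the direction of the motif, which is in capitals, so that the letters around it can be compared.
AARS1: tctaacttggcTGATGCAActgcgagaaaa
CARS1: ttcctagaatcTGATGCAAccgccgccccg
GARS1: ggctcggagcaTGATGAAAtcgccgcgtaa
IARS1: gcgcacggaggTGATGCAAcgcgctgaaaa
MARS1: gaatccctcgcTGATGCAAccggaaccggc
NARS1: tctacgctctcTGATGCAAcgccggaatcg
TARS1: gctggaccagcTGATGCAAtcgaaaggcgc
YARS2: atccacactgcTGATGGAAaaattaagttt

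These sites lie at chr16:70289675-70289704 (AARS1, plus strand as printed), chr11:3057407-3057436 (CARS1, plus), chr7:30594834-30594863 (GARS1, minus) and chr9:92293692-92293721 (IARS1, plus). The others lie at chr12:57488053-57488082 (MARS1, minus), chr18:57621804-57621833 (NARS1, minus), chr5:33440956-33440985 (TARS1, minus) and chr12:32756076-32756105 (YARS2, minus). In 6 of the 7 ATF4 group genes the motif reads TGATGCAA, and in GARS1 it reads TGATGAAA. Counted from the outermost start in the promoter table, it begins at -2 in CARS1, -4 in MARS1, -13 in IARS1, 14 in NARS1, -187 in AARS1 and -197 in YARS2. In GARS1 and TARS1, which each have 2 starts in the table, it lies at the second start (at -33 and 2 from it), which is 143 bases downstream of the first in GARS1 and 269 in TARS1. A match describes these letters and is no measured binding site. The ATF/CRE motif TGACGTCA was in 0 promoters of the family, against 1.85% of all promoters. The E-box CACGTG was in promoters of IARS1, CARS2, EARS2 and MARS2 (7.26% of all promoters), and TTCNNNGAA in those of CARS1, TARS1, WARS1, PARS2 and WARS2 (7.66%).

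The deposited log2 intensities ran from 3.21 to 14.8 over 48701 probes, and 26.5% to 30.0% of probes were above background on an array. Of the 34 genes, 32 were above background on all 24 arrays, TARS2 on 19 and PARS2 on 11. All 10 fibroblast markers (COL1A1 and VIM among them) were above background on every array. Of the markers of other cells, KRT18 of 6 epithelial, TEK of 5 endothelial and CD68 of 4 immune genes with a probe were above background on all 24 arrays. At 8 d against 0 h, 7 of 10 fibroblast markers were lower and 0 higher (DCN at -3.24), 3 of 4 tested epithelial markers were lower, and CD68 was 0.99 higher (without the 0 h array of batch D, described next, 7 of 10, 3 of 4 and 1.04), and 1 of 4 tested endothelial markers was higher. Of all genes, 24.1% were higher and 23.5% lower at 8 d. From 2 d to 4 d, 5 of 10 fibroblast markers were higher and 0 lower, against 17% and 19.2% of all genes. In that step 3 of 4 endothelial markers were higher (median 0.86), 1 of 4 epithelial markers was lower, and CD68 was -0.08. The part of these shifts in the synthetase results was not tested. In bulk RNA, fewer cells and less RNA per cell cannot be told apart. Values below are log2 changes ± standard error from limma over all 24 arrays with 3 arrays per time point, p is adjusted by Benjamini-Hochberg over all genes, and a gene is called where adjusted p is under 0.05. The 7 comparisons with 0 h share the same 3 arrays at 0 h. Values were quantile-normalized. Centring each array on its median instead moved the median change of all genes against 0 h to -0.19 at 2 h, -0.13 at 24 h, -0.10 at 2 d, -0.12 at 6 d and -0.15 at 8 d, so rises are smaller and falls larger on that scale, and each member named as called kept its direction.

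The 0 h array of batch D stood apart from the other 0 h arrays in the amino acid genes. All 12 genes of the ATF4 group were higher on it than in the mean of arrays A and B, by a median of 0.50 on the log2 scale. WARS1, the tryptophan enzyme, was 8.36 in A, 8.21 in B and 9.48 in D at 0 h, a gap of 1.20, and AARS1, the alanine enzyme, was 11.37, 11.35 and 11.97. GARS1 was 0.48 and TARS1 0.28 higher on array D, the smallest gap of the 12. Of the other cytosolic genes 4 of 7 were higher (median 0.02), of the mitochondrial genes 7 of 15 (median -0.01), and of all genes 52.0% (median 0.01). Outside the synthetases, 23 of 26 genes of the amino acid response were higher on that array (median 0.59), and PSAT1 (1.83), NUPR1 (1.81) and ASNS (1.81) lay at percentile 99.97 or higher of all genes.

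**Figure D1:**
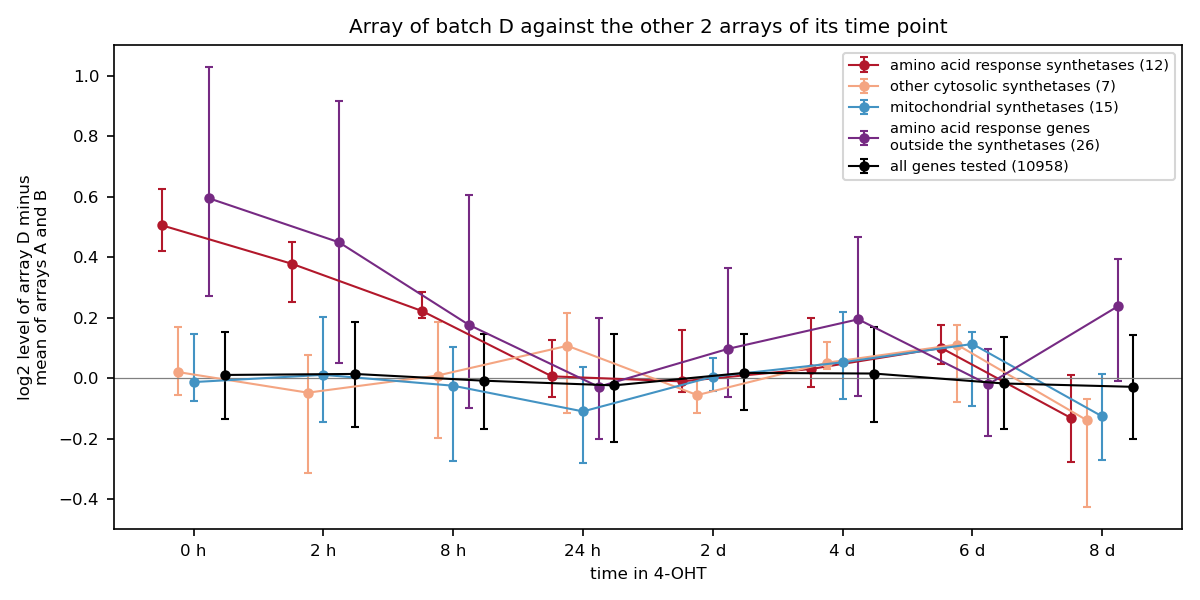
The log2 level on the array of batch D minus the mean of arrays A and B (y axis) is plotted against time in 4-OHT (x axis). Points are medians over the genes of each set and bars run from the 25th to the 75th percentile; the ATF4 group (amino acid response synthetases) lies at 0.50 at 0 h, 0.38 at 2 h, 0.22 at 8 h and near 0 at 24 h, while the other sets of synthetases lie near 0.

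The gap of batch D was smaller at later times. At 2 h the ATF4 group was again higher on array D for 12 of 12 genes, with a median of 0.38, and at 8 h for 11 of 12, with a median of 0.22. At 24 h the median was 0.01, with 7 of 12 genes higher. The 0 h arrays enter each comparison with 0 h. Member and group results against 0 h are therefore given below with all arrays and without the 0 h array of batch D. Changes given for a gene that was not called are excepted.

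Few synthetase genes were called in the first day, when the share of all genes called was also lower than at later times against 0 h. At 2 h, 0 genes were called, against 0.42% of all genes higher and 0.201% lower (0 genes without the 0 h array of batch D, 0.383% of all genes), and the changes ran from -0.32 (HARS2) to 0.25 (FARSB). At 8 h, MARS2 was higher and AARS1 lower (1 and 1 gene; all genes 2.13% higher and 2.45% lower). At 24 h, 4 genes were higher (KARS1, AARS2, IARS2 and YARS2) and 1 lower (RARS2), where 6.89% of all genes were higher and 11.2% lower. With the 0 h array of batch D left out, 1 gene (MARS2) was called at 8 h (1.74% of all genes) and 0 at 24 h (11.5%). With median centring 0 were called at 8 h (1.51% of all genes), and 0 higher and 1 lower (RARS2) at 24 h (12.4%).

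At 2 d, 6 genes were higher and 0 lower, against 11% of all genes higher and 12.5% lower. They were FARSA, HARS1, AARS2, FARS2, IARS2 and YARS2, 4 of them mitochondrial. At 4 d, 5 were higher and 1 lower (all genes 21.8% and 22.3%), at 6 d 6 and 3 (23.8% and 21.7%), and at 8 d 7 and 2 (24.1% and 23.5%). Without the 0 h array of batch D the counts were 5 at 2 d (19.8% of all genes), 8 at 4 d (40.3%), 12 at 6 d (41.9%) and 12 at 8 d (43.6%). With batch as a block, 10 genes were called at 4 d in place of 6, 8 higher and 2 lower (44.6% of all genes in that fit). With median centring the calls were 0 at 2 d, 0 higher and 2 lower at 4 d, 2 and 4 at 6 d, and 2 and 7 at 8 d (MARS2 and CARS2 higher; AARS1, GARS1, MARS1, QARS1, SARS1, HARS2 and RARS2 lower), where 15.3%, 32.2%, 35.1% and 38.5% of all genes were called, while the share of called genes that were higher fell from 50.7% to 27.3% over all genes at 8 d.

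Over the 8 time points together, 18 of 34 synthetase genes varied in the F test of limma (10 of 19 cytosolic and 8 of 15 mitochondrial), against 69.6% of all genes. Set against these shares, the count of called synthetase genes was below that of all genes at 4 d, 6 d and 8 d (6, 9 and 9 of 34). This gap was smaller without the 0 h array of batch D. In that fit 10 genes were higher and 2 lower at both 6 d and 8 d (41.9% and 43.6% of all genes called). Without the D arrays of 0 h, 2 h and 8 h, 14 of 34 were called at 8 d (44.7% of all genes). Of the 48 calls of synthetase genes over the 9 comparisons, 22 stayed past the threshold whichever of the 6 arrays compared was left out.

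**Figure D2:**
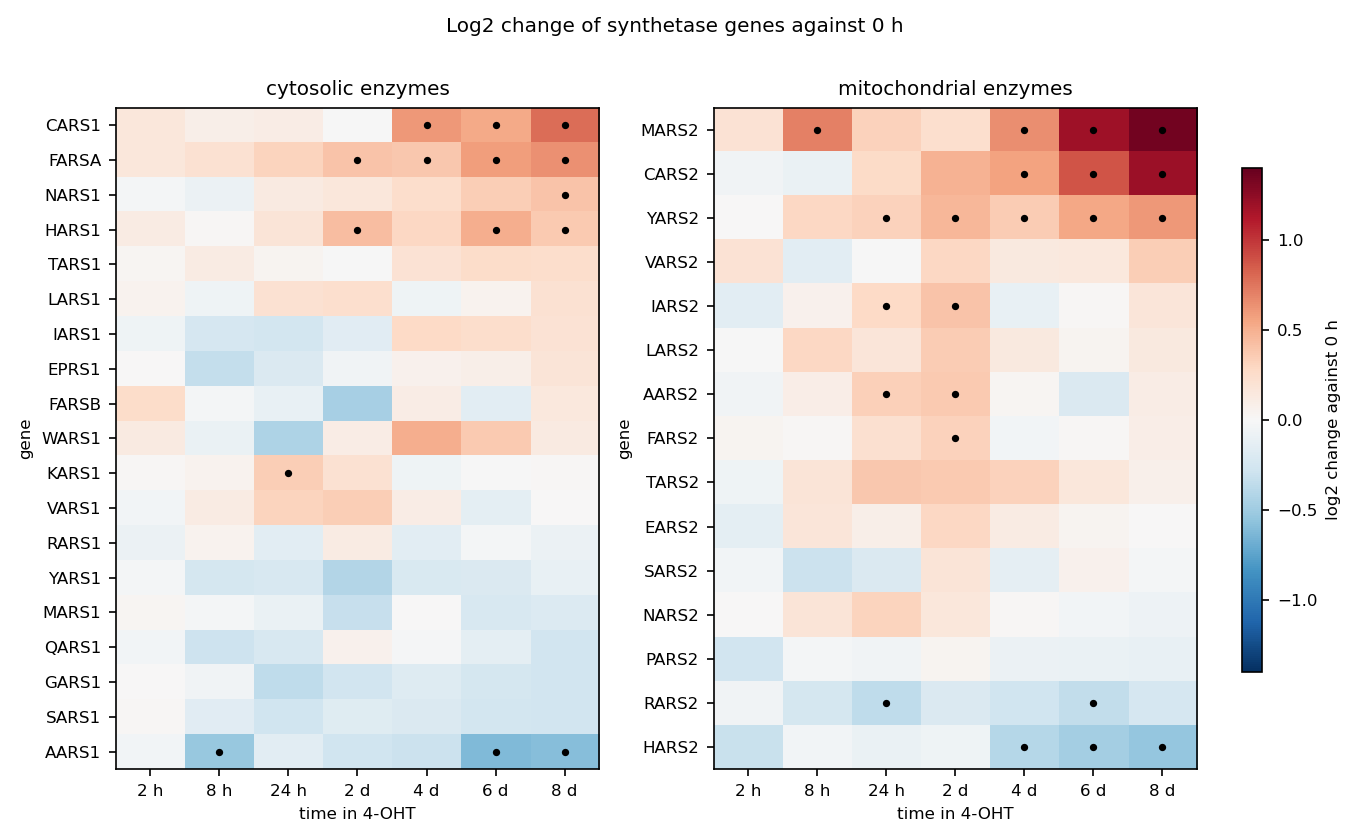
Colour gives the log2 change against 0 h of each of the 34 synthetase genes (rows, ordered by the 8 d change) at 7 times in 4-OHT (columns), and a black dot marks adjusted p under 0.05 in limma. MARS2 (1.35 at 8 d) and CARS2 (1.20) have the largest rises, and AARS1 (-0.59) and HARS2 (-0.54) the largest falls.

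The largest rises in the family were in mitochondrial enzymes. MARS2 charges the mitochondrial methionine tRNA, from which the organelle also makes its initiator. It stood at 8.00, 7.94 and 7.46 at 0 h in batches A, B and D, at 8.72, 8.60 and 8.19 at 8 h, at 7.92, 8.06 and 8.13 at 2 d, and at 9.20, 9.07 and 9.18 at 8 d. It was thus high at 8 h, lower again at 24 h and 2 d, and high on all 6 arrays of 6 d and 8 d, with no overlap with 0 h. The change was 0.70 ± 0.13 at 8 h (adjusted p = 0.00242, limma), 1.19 ± 0.13 at 6 d (adjusted p = 8.51e-08) and 1.35 ± 0.13 at 8 d (adjusted p = 1.04e-08), a 2.56-fold rise. Without the 0 h array of batch D, which was the lowest of the 24 for MARS2, these were 0.53, 1.02 and 1.18, each still called, and within batches the 8 d change was 1.20, 1.13 and 1.72.

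CARS2, the mitochondrial cysteine enzyme, also makes cysteine persulfides. Its 0 h values were 8.06, 7.96 and 8.27, its 6 d values 9.11, 8.95 and 8.88, and its 8 d values 9.50, 9.70 and 8.69. All arrays of 6 d and 8 d lay above all arrays of 0 h, with the 8 d array of batch D well below the other two. The change was 0.57 ± 0.21 at 4 d, 0.88 ± 0.21 at 6 d and 1.20 ± 0.21 at 8 d (adjusted p = 4.04e-05, limma), or 2.29-fold, and without the 0 h array of batch D 0.65, 0.97 and 1.29. Within batches the 8 d change was 1.44, 1.74 and 0.42. The 4 d call was lost without 0 h A (0.55, adjusted p = 0.0735), 0 h B (0.50, adjusted p = 0.103) or 4 d D (0.40, adjusted p = 0.156).

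YARS2, the mitochondrial tyrosine enzyme, moved earlier and less. It was 9.51, 9.43 and 9.40 at 0 h, 9.90, 9.96 and 9.89 at 2 d, and 10.07, 9.92 and 10.16 at 8 d. From 8 h on, every array lay above the 3 arrays of 0 h. The rise was 0.32 ± 0.09 at 24 h, 0.47 ± 0.09 at 2 d, 0.36 ± 0.09 at 4 d, 0.54 ± 0.09 at 6 d and 0.60 ± 0.09 at 8 d (adjusted p = 1.15e-05 at 8 d, limma), and without the 0 h array of batch D 0.30, 0.45, 0.33, 0.52 and 0.58. The 24 h call was lost without the 0 h arrays of batch B (adjusted p = 0.0548) or D (adjusted p = 0.0737). It was lost also without the 24 h array of batch D (adjusted p = 0.0898). With median centring the rises were 0.16, 0.32, 0.24, 0.34 and 0.33. YARS2 was called at none of these times on that scale (adjusted p from 0.105 to 0.605, limma).

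**Figure D3:**
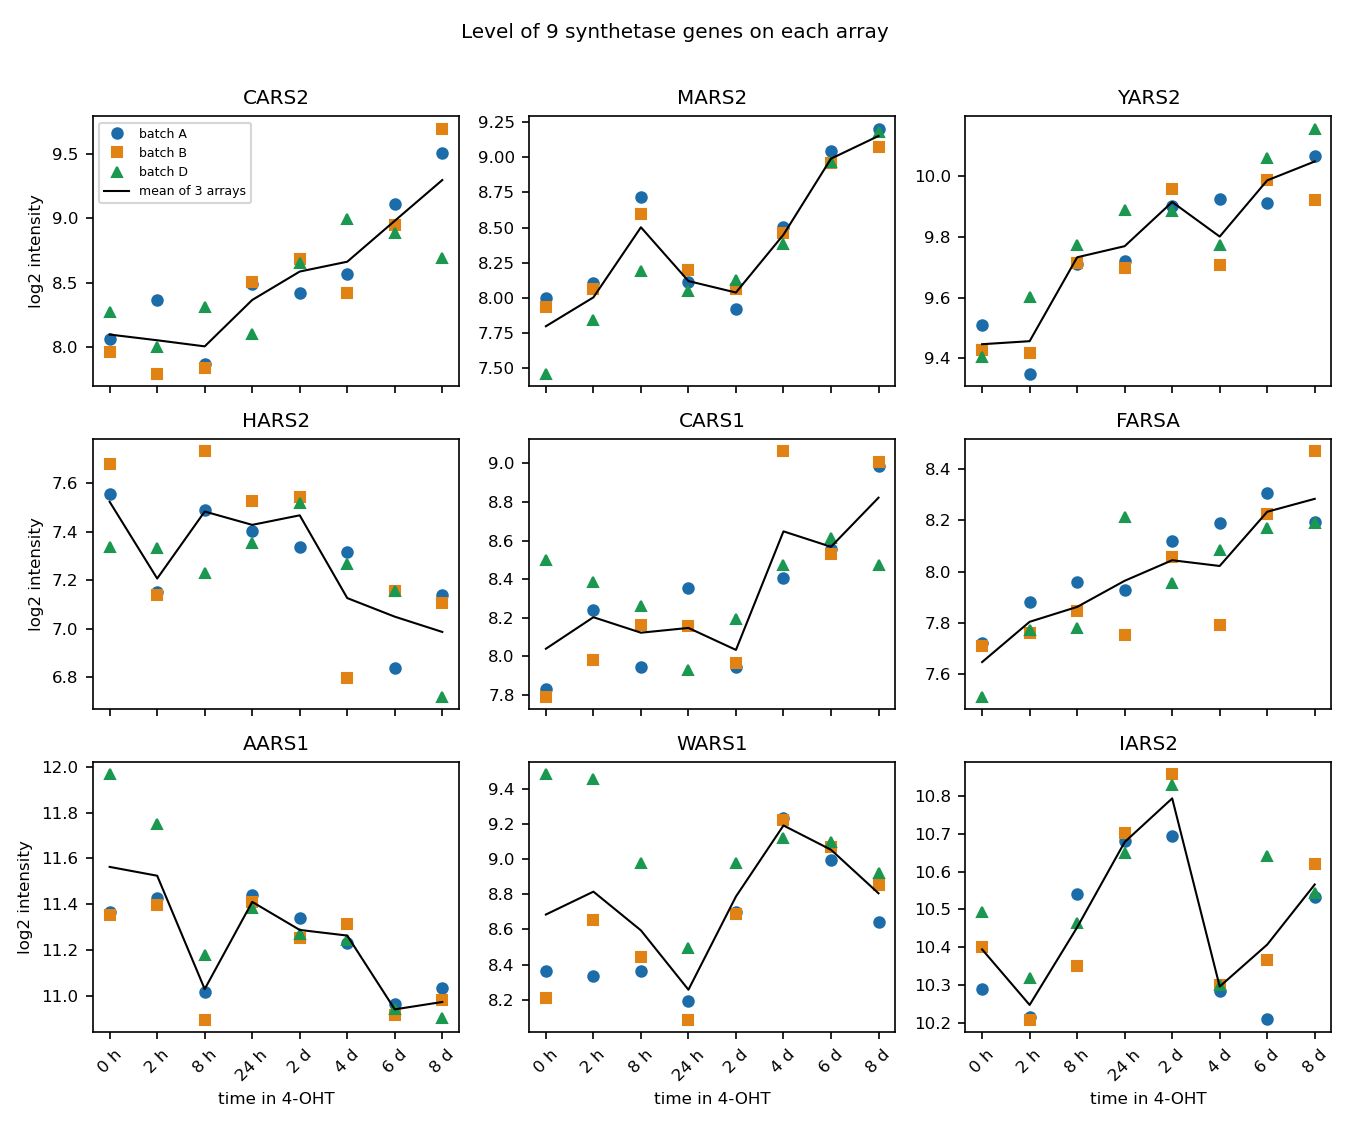
Each panel shows the log2 intensity of a synthetase gene on every array (y axis, own scale per panel, not starting at 0) against time in 4-OHT (x axis), with symbols for batches A, B and D and a line through the mean of 3 arrays. MARS2 rises from between 7.46 and 8.00 at 0 h to between 9.07 and 9.20 at 8 d, and the batch D array of AARS1, CARS1 and WARS1 is the highest of the 3 at 0 h.

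IARS2, AARS2, FARS2 and SARS2 were highest at 2 d. IARS2, the isoleucine enzyme, was 10.29, 10.40 and 10.49 at 0 h, 10.69, 10.86 and 10.83 at 2 d, and 10.28, 10.30 and 10.30 at 4 d. Its 2 d arrays lay above all arrays of both other times, by 0.40 ± 0.10 against 0 h (adjusted p = 0.00467, limma; 0.45 without the 0 h array of batch D). AARS2, the alanine enzyme, was 7.90, 7.89 and 7.66 at 0 h and 8.19, 8.16 and 8.20 at 2 d, a rise of 0.37 ± 0.11 that was lost without the 0 h array of batch D (0.29, adjusted p = 0.117). It was also lost without 2 d A (0.36, adjusted p = 0.0598), 2 d B (0.38, adjusted p = 0.051) or 2 d D (0.36, adjusted p = 0.0622). FARS2, the phenylalanine enzyme of mitochondria, rose by 0.32 ± 0.09 at 2 d (0.32 without the 0 h array of batch D), from 8.13, 8.15 and 8.16 to 8.56, 8.42 and 8.42, and the call was lost without 2 d A (0.27, adjusted p = 0.0742). At 24 h, IARS2 was 0.28 ± 0.10 and AARS2 0.33 ± 0.11 above 0 h, and each of these 2 calls was lost without any of the 6 arrays, with adjusted p up to 0.181 and 0.218; with batch as a block AARS2 had an adjusted p of 0.0555.

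Mitochondrial genes that fell were HARS2 and RARS2. HARS2, the histidine enzyme, was 7.56, 7.68 and 7.34 at 0 h and 7.14, 7.10 and 6.72 at 8 d, with no overlap. The fall was -0.40 ± 0.15 at 4 d, -0.47 ± 0.15 at 6 d and -0.54 ± 0.15 at 8 d (adjusted p = 0.00484, limma), and -0.49, -0.57 and -0.63 without the 0 h array of batch D. The 4 d call was lost without 0 h A (adjusted p = 0.0851), 0 h B (0.145) or 4 d B (0.241), and the 6 d call without 0 h B (0.0656) or 6 d A (0.0787). RARS2, the arginine enzyme, was -0.35 ± 0.12 below 0 h at 24 h and -0.35 ± 0.12 at 6 d, and without the 0 h array of batch D these were -0.31 (adjusted p = 0.141) and -0.30 (adjusted p = 0.0699). It was lost at 24 h also without 0 h A, 24 h A or 24 h B (adjusted p = 0.071, 0.107 and 0.155), and at 6 d without 6 d A (adjusted p = 0.0658). The other mitochondrial genes were not called against 0 h: EARS2, LARS2, NARS2, PARS2, SARS2, TARS2 and VARS2, whose 8 d changes ran from -0.10 to 0.34. With batch as a block SARS2 was called at 8 h (-0.30), LARS2 at 2 d (0.36) and TARS2 at 24 h (0.38), 2 d (0.36) and 4 d (0.33), and RARS2 was called at 4 d (-0.27).

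In the ATF4 group, AARS1 and CARS1 went in opposite directions. AARS1 was 11.37, 11.35 and 11.97 at 0 h, 11.02, 10.89 and 11.18 at 8 h, 11.44, 11.41 and 11.38 at 24 h, and 11.03, 10.98 and 10.90 at 8 d. Its arrays of 8 h and of 2 d and later lay below all 0 h arrays, and those of 2 h and 24 h overlapped with them. The fall was -0.53 ± 0.13 at 8 h, -0.62 ± 0.13 at 6 d and -0.59 ± 0.13 at 8 d (adjusted p = 0.000483, limma). Without the 0 h array of batch D it was -0.33 (adjusted p = 0.147), -0.42 (adjusted p = 0.00317) and -0.39 (adjusted p = 0.00558), so the late falls were smaller and still called. The 8 h call was lost also without 8 h A (adjusted p = 0.0564) or 8 h B (adjusted p = 0.1).

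CARS1, the cytosolic cysteine enzyme, was 7.83, 7.79 and 8.50 at 0 h, 8.41, 9.06 and 8.48 at 4 d and 8.99, 9.01 and 8.47 at 8 d. Arrays A and B rose, and array D of 8 d stayed just below its own 0 h array. The change was 0.61 ± 0.19 at 4 d, 0.53 ± 0.19 at 6 d and 0.78 ± 0.19 at 8 d (adjusted p = 0.00134, limma), and 0.84, 0.76 and 1.01 without the 0 h array of batch D. Within batches the 8 d change was 1.16, 1.22 and -0.03. The 4 d call was lost without 0 h A, 0 h B or 4 d B (adjusted p = 0.0618, 0.0707 and 0.0979), and the 6 d call without 0 h A, 0 h B, 6 d A or 6 d D (adjusted p = 0.114, 0.129, 0.0519 and 0.0632).

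NARS1, the asparagine enzyme, rose by 0.40 ± 0.14 at 8 d (adjusted p = 0.0269, limma). Its arrays were 11.68, 11.70 and 12.22 at 0 h and 12.31, 12.35 and 12.13 at 8 d, so the groups overlapped through batch D, where the change was -0.09. Leaving out the 0 h array of batch D gave 0.57 (adjusted p = 0.00211), and the call was lost without 0 h A, 0 h B, 8 d A or 8 d B (adjusted p = 0.131, 0.128, 0.0719 and 0.0874).

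Several more genes of the ATF4 group were called without the 0 h array of batch D and not with all arrays. All 12 genes were higher on that array than on arrays A and B (median 0.50). Leaving it out therefore raises each change of the group by construction, and these further calls are no separate evidence of a rise. WARS1 was 9.24, 9.22 and 9.12 at 4 d, against 8.36, 8.21 and 9.48 at 0 h, a change of 0.51 ± 0.26 with all arrays (adjusted p = 0.114, limma) and 0.91 ± 0.22 without that array (adjusted p = 0.0022). At 6 d WARS1 was 0.37 and 0.77 (adjusted p = 0.258 and 0.00726). IARS1 was 0.41 at 4 d, 0.38 at 6 d and 0.33 at 8 d without the array, and TARS1 0.35 at 6 d and 0.34 at 8 d. NARS1 was 0.42 at 4 d and 0.52 at 6 d, and LARS1, the leucine enzyme, 0.37 at 2 d and 0.35 at 8 d. The group as a whole had 2 genes higher and 1 lower at 8 d with all arrays (median 0.15), against 24.1% and 23.5% of all genes. Without the array the group had 5 higher and 1 lower (median 0.33), against 22.1% and 21.5%. Its median within batches was 0.30, 0.26 and -0.44 at 8 d. EPRS1, GARS1, MARS1, SARS1 and YARS1 were called at no time against 0 h in either fit. With batch as a block GARS1 was called at 24 h (-0.35), YARS1 at 2 d (-0.41), IARS1 (0.28) and WARS1 (0.51) at 4 d and NARS1 at 6 d (0.35). Without 0 h A, GARS1 was called lower at 24 h (-0.48), 6 d (-0.37) and 8 d (-0.39). In that fit SARS1 was also lower at 6 d (-0.36) and 8 d (-0.37), YARS1 at 2 d (-0.57) and AARS1 at 4 d (-0.40). The further calls were thus higher without 0 h D and lower without 0 h A, in different genes, and 0 results reversed.

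Among the other cytosolic genes, the phenylalanine and histidine enzymes rose. FARSA, the alpha subunit of phenylalanyl-tRNA synthetase, was 7.72, 7.71 and 7.51 at 0 h, 8.12, 8.06 and 7.96 at 2 d and 8.19, 8.47 and 8.19 at 8 d, with no overlap. The rise was 0.40 ± 0.12 at 2 d, 0.37 ± 0.12 at 4 d, 0.58 ± 0.12 at 6 d and 0.64 ± 0.12 at 8 d (adjusted p = 0.000115, limma), and without the 0 h array of batch D 0.33 (adjusted p = 0.0882), 0.31 (adjusted p = 0.0716), 0.52 and 0.57. The 2 d call was lost also without 2 d A or 2 d B (adjusted p = 0.0716 and 0.0546), and the 4 d call without 4 d A (adjusted p = 0.0835). FARSB, its beta subunit, did not pass the test against 0 h at any time and was -0.47 at 2 d and 0.15 at 8 d, so the 2 subunits of 1 enzyme had different profiles.

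HARS1, the cytosolic histidine enzyme, was 10.48, 10.62 and 10.65 at 0 h, 11.04, 11.07 and 10.93 at 2 d, 11.10, 11.18 and 10.99 at 6 d and 10.86, 11.25 and 10.72 at 8 d. The 2 d, 6 d and 8 d arrays lay above 0 h. The rise was 0.43 ± 0.13, 0.51 ± 0.13 and 0.36 ± 0.13 (adjusted p = 0.0152, 0.00211 and 0.0214, limma), and 0.47, 0.54 and 0.40 without the 0 h array of batch D. The 2 d call was lost without 0 h A, 2 d A or 2 d B (adjusted p = 0.0707, 0.0502 and 0.0586) and the 8 d call without 0 h A or 8 d B (adjusted p = 0.0872 and 0.187). KARS1, the lysine enzyme, rose by 0.34 ± 0.11 at 24 h, from 8.59, 8.54 and 8.59 to 8.89, 8.87 and 8.98, and the call was lost without any of the 6 arrays (adjusted p from 0.0555 to 0.0993; 0.35 and 0.0753 without the 0 h array of batch D). QARS1, RARS1 and VARS1 were not called against 0 h, with 8 d changes of -0.26, -0.08 and 0.01, and QARS1 was called at 8 d with batch as a block (adjusted p = 0.0492).

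HARS1 and HARS2 are neighbours that start on opposite strands of the same stretch of chromosome 5, and they moved apart: at 8 d HARS1 was 0.36 above and HARS2 -0.54 below 0 h. The difference of the changes, HARS1 minus HARS2, was 0.90 ± 0.27 (SD, n = 3 batches), at 0.80, 1.21 and 0.69 in batches A, B and D, and 1.03 without the 0 h array of batch D. With median centring HARS1 was 0.09 and not called, and HARS2 was -0.77. The 300 bases at the HARS2 start, chr5:140691205-140691504 on the plus strand (RefSeq, GRCh38.p14), hold both gene starts, HARS1 at 140691370 on the minus strand and HARS2 at 140691455. The 84 bases between them are in capitals.
HARS2: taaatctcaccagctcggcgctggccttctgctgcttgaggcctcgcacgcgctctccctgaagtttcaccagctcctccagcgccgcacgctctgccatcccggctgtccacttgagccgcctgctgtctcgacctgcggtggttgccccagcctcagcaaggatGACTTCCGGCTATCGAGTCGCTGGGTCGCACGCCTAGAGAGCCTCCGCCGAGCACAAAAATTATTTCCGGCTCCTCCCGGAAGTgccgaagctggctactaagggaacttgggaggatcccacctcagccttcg

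The synthetases were also counted by complex and by structural class, with no test between these sets. Of the 7 members of the complex (EPRS1, IARS1, KARS1, LARS1, MARS1, QARS1 and RARS1), 0 were called at 8 d (median 0.02), and 4 of the 12 cytosolic genes outside it were higher and 1 lower (median 0.13), against 24.1% and 23.5% of all genes. With the 0 h array of batch D left out, 2 of the 7 were higher (IARS1 at 0.33 and LARS1 at 0.35), and 5 of the 12 were higher and 1 lower. AIMP1, a scaffold protein of the complex and the only 1 of 3 scaffold genes that was tested, was not called in any comparison and was 0.04 at 8 d (0.03 without the 0 h array of batch D). Of 9 cytosolic enzymes of class I, 1 was higher at 8 d, and of 9 of class II, 3 were higher and 1 lower. These were 3 of class I, and 4 higher and 1 lower of class II, when that array was left out.

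The median change of each compartment had a different course. Mitochondrial genes had a median of 0.22 at 24 h and 0.29 at 2 d, where 13 of 15 were above 0 h, and of 0.03 at 4 d. At 2 d 7 of the 15 had their highest mean. Cytosolic genes had a median of -0.10 at 24 h, -0.01 at 2 d and 0.06 at 4 d, and the median of all genes was 0.01 at 2 d. With the 0 h array of batch D left out, the cytosolic medians were 0.05, 0.10 and 0.20, so their sign turned at 24 h and 2 d, and the mitochondrial ones were 0.17, 0.29 and 0.05. The cytosolic minus mitochondrial difference of medians was -0.32 at 24 h and -0.29 at 2 d. Within batches A, B and D it was -0.08, -0.19 and -0.46 at 24 h and -0.17, -0.13 and -0.61 at 2 d. Without the 0 h array of batch D it was -0.12 at 24 h and -0.19 at 2 d, and no test was made of these medians. On the median-centred scale the mitochondrial median at 2 d was 0.13 against -0.10 for all genes.

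**Figure D4:**
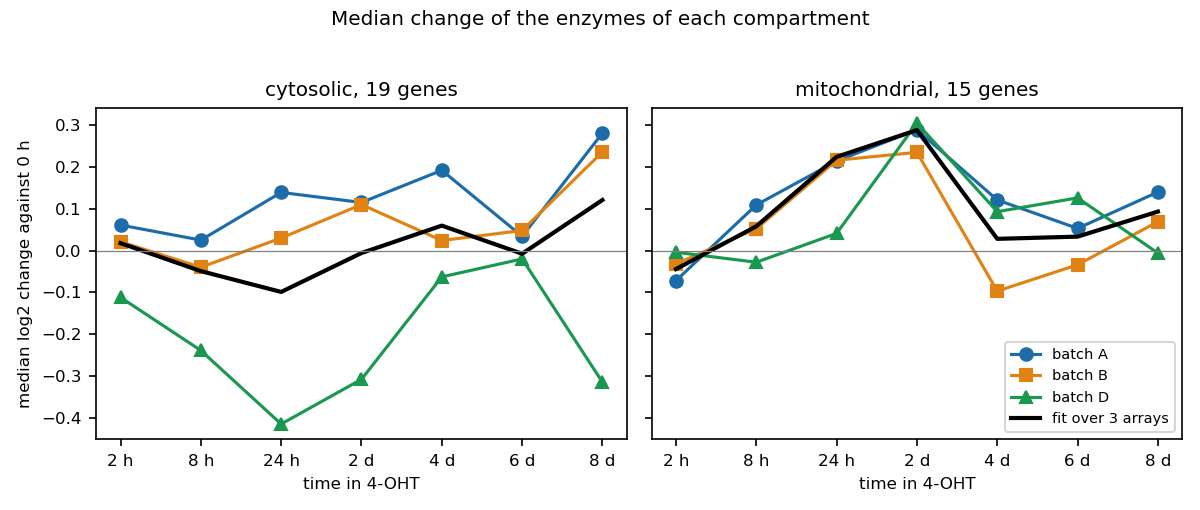
The median log2 change against 0 h (y axis) of 19 cytosolic and 15 mitochondrial synthetase genes is plotted against time in 4-OHT (x axis) for batches A, B and D and for the fit over 3 arrays. The mitochondrial medians of the 3 batches at 2 d are 0.29, 0.24 and 0.30, while the cytosolic median of batch D lies below those of batches A and B at each time.

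From 2 d to 4 d, 4 genes rose and 5 fell (all genes 17% higher and 19.2% lower). The 0 h arrays do not enter these changes, but they enter the shared estimate of spread behind each standard error and adjusted p. Without the 0 h array of batch D, 5 genes rose and 6 fell (36.1% of all genes called). The mitochondrial median was -0.16, with 13 of 15 genes lower at 4 d, and 4 of these were called. IARS2 fell by 0.50 ± 0.10 on the log2 scale (adjusted p = 0.000371, limma), with -0.41, -0.56 and -0.53 within batches, and FARS2 was -0.36 ± 0.09 (adjusted p = 0.0038). AARS2 was -0.34 ± 0.11 and SARS2, the serine enzyme, -0.30 ± 0.10, from 9.44, 9.41 and 9.35 at 2 d to 9.26, 9.05 and 8.99. Their calls were lost without most of the 6 arrays (2 d A, 2 d B, 2 d D, 4 d B or 4 d D for AARS2, adjusted p up to 0.0898, and 2 d A, 2 d B, 4 d B or 4 d D for SARS2, adjusted p up to 0.0875).

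Of the 12 genes of the ATF4 group, 2 passed the test from 2 d to 4 d (CARS1 and IARS1, both higher). With all arrays this share was close to the 17% of all genes, and the median change of the group was 0.15. Without the 0 h array of batch D, 3 of the 12 were higher and 1 lower (36.1% of all genes called in either direction). IARS1, the cytosolic isoleucine enzyme, was 10.54, 10.54 and 10.45 at 2 d and 11.09, 10.78 and 10.97 at 4 d, a rise of 0.44 ± 0.11 (adjusted p = 0.00434, limma) with no overlap. IARS1 minus IARS2 changed by 0.93 ± 0.13 (SD, n = 3 batches), at 0.96, 0.79 and 1.05, so the cytosolic and mitochondrial isoleucine genes moved in opposite directions in every batch. CARS1 rose by 0.62 ± 0.19, and the call was lost without 4 d B (0.41, adjusted p = 0.114). Outside the group, FARSB rose by 0.57 ± 0.22, from 7.19, 7.59 and 7.78 to 7.90, 8.09 and 8.27, and lost its call without 2 d A (adjusted p = 0.21), 2 d B (0.0716), 4 d B (0.0907) or 4 d D (0.135) and with batch as a block (0.0531). MARS2 rose by 0.41 ± 0.13 (lost without 2 d A, adjusted p = 0.0776, or 4 d A, adjusted p = 0.053). RARS1 was -0.26 ± 0.10. Among the 6 arrays of 2 d and 4 d, it kept its call only without 4 d A, with adjusted p up to 0.218 without the others.

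From 4 d to 8 d, 2 genes rose and 0 fell (all genes 10.4% higher and 10.1% lower). Without the 0 h array of batch D, 2 rose and 1 fell (20.5% of all genes called). Without the D arrays of 0 h, 2 h and 8 h, 2 rose and 2 fell (22.1%). The 2 that fell in that fit were AARS1 (-0.29) and WARS1 (-0.39). MARS2 rose by 0.70 ± 0.13 (adjusted p = 0.000475, limma), by 0.70, 0.61 and 0.80 within batches. CARS2 rose by 0.63 ± 0.21 (adjusted p = 0.0319), but its arrays overlapped, with 0.93, 1.27 and -0.31 within batches, and the call was lost without 4 d A, 4 d B, 8 d A or 8 d B (adjusted p = 0.092, 0.127, 0.122 and 0.194).

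Pairs of enzymes for the same amino acid were set side by side for 8 d against 0 h. The cysteine genes rose together, CARS1 by 0.78 and CARS2 by 1.20. In the methionine pair MARS1 was -0.19 and not called while MARS2 was 1.35, and MARS1 minus MARS2 was -1.54 ± 0.85 (SD, n = 3 batches), at -1.18, -0.94 and -2.51. In the tyrosine pair YARS1 was -0.10 and YARS2 0.60, and in the alanine pair AARS1 was -0.59 and AARS2 0.10. Leaving out the 0 h array of batch D, CARS1 was 1.01 and CARS2 1.29, MARS1 0.01 and MARS2 1.18 (difference -1.17), YARS1 0.12 and YARS2 0.58, and AARS1 -0.39 and AARS2 0.02.

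Of the genes of the amino acid response outside the synthetases, 26 of 30 listed were tested. At 2 d 11 were lower and 2 higher (median -0.52; all genes 12.5% lower and 11% higher), at 4 d 11 and 6 (22.3% and 21.8%), and at 8 d 13 and 5 (median -0.37; 23.5% and 24.1%). When the 0 h array of batch D was left out, 8 were lower and 2 higher at 2 d and 5 lower and 6 higher at 4 d. From 2 d to 4 d, 5 were higher and 2 lower (17% and 19.2% of all genes). At 8 d NUPR1, a stress-induced nuclear protein, was -2.72 ± 0.46, PHGDH, the entry enzyme of serine synthesis, -2.20 ± 0.31, PSAT1, the next enzyme of that path, -1.52 ± 0.43, and ASNS, asparagine synthetase, -1.49 ± 0.43. Without the 0 h array of batch D these were -2.12, -1.80, -0.91 (adjusted p = 0.0656, limma) and -0.89 (adjusted p = 0.0723), and 10 of the 26 were lower and 4 higher (median -0.27). ATF4 itself was -0.48 ± 0.10 at 2 d and -0.43 ± 0.10 at 8 d, and -0.40 and -0.34 without that array. CEBPB, TRIB3 and DDIT3, factors of the stress branch, were 0.95 ± 0.14, 0.80 ± 0.27 and 0.60 ± 0.16 higher at 8 d, and with median centring CEBPB (0.71) was the only 1 of the 26 that was called higher. With all arrays, CARS1 and NARS1 were thus higher at 8 d, while AARS1 (-0.59), ASNS and PSAT1, read from the same arrays, were lower. This contrast did not hold in every fit. Without the 0 h array of batch D, ASNS and PSAT1 were not called. With median centring, CARS1 (0.51) and NARS1 (0.17) were not called, and in batch D neither of these rose.

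Of 22 listed factors of mitochondrial translation and transcription, 18 were tested. At 2 d 4 were higher and 0 lower (median 0.14; all genes 11% and 12.5%), from 2 d to 4 d 0 were higher and 6 lower (median -0.10; 17% and 19.2%), and at 8 d against 0 h 5 were higher and 1 lower (median 0.12; 24.1% and 23.5%). GATB, a subunit of the enzyme that makes mitochondrial glutaminyl-tRNA, was 0.57 ± 0.15 at 2 d and then -0.86 ± 0.15 from 2 d to 4 d. TFAM, which packs mitochondrial DNA, was -0.66 ± 0.13 from 2 d to 4 d. At 8 d POLRMT, the mitochondrial RNA polymerase, was 0.96 ± 0.11 and MTFMT, which formylates the methionyl-tRNA that MARS2 makes, 0.55 ± 0.11, and without the 0 h array of batch D 1.00 and 0.55. With median centring 0 of the 18 were called at 2 d, and 1 was higher (POLRMT, 0.68) and 1 lower (TFAM) at 8 d. Of 21 cytosolic translation factors, 3 were higher (ETF1, EIF4G1 and EIF3B) and 2 lower (EIF5 and EEF1B2) at 8 d, with a median of 0.07. These were 1 higher and 1 lower without the 0 h array of batch D, and 0 higher and 5 lower with median centring, where EIF3B was -0.03.

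Interferon response genes were listed because WARS1 is also an interferon target. Of 10 tested of 12, 7 were higher and 0 lower from 2 d to 4 d (median 0.54), with IFI6 at 2.09 ± 0.13, IRF1 at 1.21 ± 0.19 and ISG15 at 1.18 ± 0.15. Of all genes, 17% were higher and 19.2% lower from 2 d to 4 d. WARS1 itself was 0.41 ± 0.26 over that step (adjusted p = 0.234, limma), higher in all 3 batches. Its standard error pools all time points, with an SD of 0.695 at 0 h, 0.164 at 2 d and 0.063 at 4 d. In limma it was called with the 2 groups fitted alone (adjusted p = 0.0297) and with array weights (adjusted p = 0.0362). It was also called without batch D (adjusted p = 0.00271) and without the D arrays of 0 h, 2 h and 8 h (adjusted p = 0.0114). The other alternatives run did not call it. From 4 d to 8 d, 6 of the 10 were lower (median -0.84), against 10.1% of all genes. Of 5 tested genes of tRNA export and editing, GTPBP2, NEMF and XPO5 were higher and DTD1 lower at 8 d (0.42, 0.49, 0.31 and -0.47); XPO5 was not called without the 0 h array of batch D, and DTD1 was the only 1 called with median centring. Of 13 genes of MYC and RNA polymerase III, which transcribes transfer RNA, 5 were higher (MYC at 0.76 and POLR3E at 0.90) and 2 lower (FBL at -0.78 and POLR3C at -0.30) at 8 d, against 4 and 4 without the 0 h array of batch D and 3 and 5 with median centring. Of all genes, 24.1% were higher and 23.5% lower at 8 d. These were 22.1% and 21.5% without that array, and with median centring 38.5% were called in either direction.

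The genes most like the mean of the cytosolic synthetases over the 24 arrays were PARP9 (Pearson r = 0.81), RABGAP1 (0.77), TBCK, HAX1, CIRSR, LPCAT3, RHOT1 and WDR83OS, and the least like were DCAF16 (-0.75), PPP2CB (-0.75), KATNAL1 and QKI. Among the members, EPRS1 (0.87), NARS1 (0.74) and WARS1 (0.73) followed that mean most closely. Each of these is itself part of the mean, which raises its r, so these values cannot be set beside those of genes outside the family. The median correlation was 0.14 over 171 pairs of cytosolic genes, 0.13 over 105 pairs of mitochondrial genes and 0.01 over the 285 mixed pairs. These are descriptions over 24 arrays that share normalization, batch and the array of batch D at 0 h.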

How the data were processed

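The deposited arrays hold log2 intensities, not normalized between arrays judged by their medians. The authors' series matrix is also in log2 and, by its values, quantile-normalized (median absolute difference 0.00274 to a quantile normalization made here). Tools and detection p-values of the authors are not given in the sources used here. Deposited values were put on the linear scale, corrected with normexp in limma 3.58.1 (R 4.3.3, offset 16), returned to log2 and quantile-normalized. Per array, background was taken as a normal curve around the most frequent value, with the width seen on its lower side, and a probe counted as above background at a probability under 0.01; probes above it on at least 3 arrays were kept (15993). Probes were named from the platform's symbols (23687 with 1 symbol, 35 with several, 24979 with none), and 99.8% matched RefSeq by Entrez ID. Each gene was read from the kept probe with the highest series matrix mean, which left 10958 genes.

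limma was fitted on 8 group means over 24 arrays (degrees of freedom: 16 residual, 6.70 prior), and each of 9 comparisons was adjusted by Benjamini-Hochberg over all genes. On simulated data for 24 h against 0 h (10958 genes, 200 changed) the fit recovered 95% of changes of size 1 and 39% of size 0.5 on the log2 scale. The genes named are every member, up to 4 called genes of each list per comparison with the largest change, and the 8 genes most and 4 least like the cytosolic mean. Genes behind list counts of 5 or fewer, and ATF4, CEBPB, TRIB3 and DDIT3, were named after their values were seen. The members and lists were chosen with earlier results of these data known. The batch letters pair the arrays by the labels, though residuals of arrays with 1 letter correlated at only 0.04 (A), 0.00 (B) and 0.06 (D) on average, against -0.02 between letters. The number of arrays limits the precision. Alternatives were the series matrix values, an offset of 50, median centring, other filters and probe rules, batch as a block, array weights, fits on 2 groups, and arrays or batches left out.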

Additional observations from a re-analysis of the deposited data

How the results depend on the processing

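Of 48 calls of synthetase genes, 8 passed the threshold under every alternative run: AARS1, CARS2 and MARS2 at 6 d and 8 d, HARS2 at 8 d, and IARS2 from 2 d to 4 d. A further 70 results were called only under an alternative, and 0 reversed. The number of genes called from 4 d to 8 d was 2 (20.4% of all genes). It was 4 with the series matrix values (20.8%), 4 with an offset of 50 (20.9%) and 0 with median centring (11.7%). It was 6 with array weights (27.3%) and 1 with the 2 groups fitted alone (8.93%). Without the D arrays of 0 h, 2 h and 8 h, an alternative chosen after seeing the data, it was 4 (22.1%). With median centring it was 0 at 8 h, 1 at 24 h, 0 at 2 d, 2 at 4 d and 3 from 2 d to 4 d (22.7% of all genes), and 10 genes varied over the course in place of 18 (54.2%). With array weights it was 4, 20, 14, 15, 15 and 15 at 8 h, 24 h, 2 d, 4 d, 6 d and 8 d, and 31 genes varied, where 13.6%, 43.1%, 41.9%, 54.3%, 59.8%, 54.4% and 87.6% of all genes were called. Without a filter it was 1 at 24 h (8.66% of all genes in that fit), and with batch as a replicate block 10 at 4 d (44.6%). The block moved no other count by over 1.5 times. Fitted alone, the 2 groups gave 0 at 8 h (3.91% of all genes), 2 at 24 h (18.2%), 10 at 2 d (29.5%) and 3 at 4 d (37.1%). Without the D arrays of 0 h, 2 h and 8 h it was 0 at 24 h (12.7% of all genes) and 14 at 8 d (44.7%). The cytosolic minus mitochondrial difference from 2 d to 4 d (0.24) was 0.33 with median centring, that from 4 d to 8 d (-0.02) was -0.0888 with median centring and -0.10 with array weights, and that at 24 h (-0.32) was -0.12 without the D arrays. Over the course, leaving out any 1 array or batch gave 7 to 24 genes. For each comparison, 1 array of the 2 groups compared, or 1 batch, was left out. This gave 0 to 2 genes at 8 h and 0 to 7 at 24 h. It gave 1 to 8 at 2 d, 1 to 9 at 4 d and 5 to 13 at 6 d. At 8 d it gave 6 to 13. From 2 d to 4 d it gave 1 to 10, and from 4 d to 8 d 1 to 4. The compartment difference then ran from -0.076 to 0.17 at 2 h, -0.20 to 0.047 at 8 h, -0.39 to -0.10 at 24 h and -0.14 to 0.0064 from 4 d to 8 d. Without batch A the counts of called genes were 0 at 8 h, 0 at 24 h, 1 at 2 d, 1 at 4 d and 5 at 6 d. The shares of all genes in that fit were 0.246%, 6.05%, 7.90%, 28.3% and 29.9%. The causes of these shifts were not tested. PARS2 and TARS2, near background on part of the arrays, are limited by signal.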
